A study of Mus musculus with 12 samples.

Results

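The genes described here are the mouse zinc finger protein genes that carry the name Zfp followed by a number and lie outside the X chromosome. They fill 311 of the 14899 rows of the expression table, under 308 symbols, because Zfp384, Zfp628 and Zfp689 each have 2 overlapping rows. In 10 rows the name of a Zfp gene is joined to that of another transcript. Members were chosen by name alone. Of the 311 rows, 310 could be tested for ES to NPC change and 299 for clone-dependent allele use, the other 12 having too few counts in more than 2 clones. The cells were hybrids of the 129Sv and Cast/EiJ strains, so that transcripts of the 2 parental alleles can be told apart by their sequence variants. The study sequenced polyadenylated RNA of 2 embryonic stem (ES) cell lines, the XX line F1-21.6 and the XY line F1-23, and of neural progenitor cell (NPC) clones derived from each in culture. Clones 129, C2, G4 and E1.2 came from the XX line, and clones mC3, mE6, mB4 and mG3 from the XY line, with 1 library for each line or clone. Clone 129 is a name and not the 129 strain. The ES lines grew in serum and leukaemia inhibitory factor on inactivated mouse embryonic fibroblasts, while each NPC line is the progeny of 1 clone, so a value that is stable through cell division shows in all its cells. Library names of the XX NPC clones start with other letters than all the rest, and line, sex chromosomes and library set therefore cannot be told apart among the NPC clones.

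Most Zfp proteins bind DNA through C2H2 fingers, in which a pair of cysteines and a pair of histidines hold a zinc ion and the residues between them touch the bases. Many also carry a KRAB box, which recruits the corepressor Trim28 and with it histone and DNA methylation, above all at transposons and imprinted loci. The genes arose by repeated duplication and stand in clusters along the chromosomes. In random monoallelic expression, a cell transcribes 1 allele of an autosomal gene and passes this choice on to its progeny, so clones of 1 origin can differ in the allele they use.

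Total counts per library ran from 61375911 to 119266777, and the median count of a Zfp row from 1266 to 2361. ES markers summed to 1120 to 2150 CPM (counts per 1000000 counts of a library) in the ES lines and 1.82 to 5.41 CPM in the NPC clones, and 4 of 6 listed markers were in the table. NPC markers (5 of 6 in the table) summed to 138 to 213 CPM in ES lines and 3650 to 6140 CPM in NPC clones. Singly, 4 of them were called higher in NPC and 1 lower. Fabp7 and Olig2 had no counts in either ES line. Fibroblast markers (5 of 6 in the table) were at 53.0 to 102 CPM in the ES lines and 0.801 to 38.4 CPM in the clones. Clone E1.2 held the highest summed neuron and astrocyte markers (279 and 226 CPM, against 14.6 to 131 and 1.4 to 26.0 CPM in the other clones), and clone 129 the highest endoderm markers (6.01 CPM). Of the 4 neuron markers in the table, 1 was called higher in NPC and 1 lower. Of the 3 astrocyte markers in the table, 2 were called higher and 0 lower. The part of fibroblasts or of other cells in the results was not tested.

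The finger repeat that names the family is shown for 6 genes on which the allele results turn. Each line gives the coding sequence of 1 finger with its linker, 84 bases read 5′ to 3′ from the longest coding transcript of GENCODE vM1 (build NCBIM37, the same as mm9), on the coding strand, with the codons of the 2 cysteines and 2 histidines in capitals.
Zfp422: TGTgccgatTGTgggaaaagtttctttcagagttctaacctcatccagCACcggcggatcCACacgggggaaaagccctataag
Zfp286: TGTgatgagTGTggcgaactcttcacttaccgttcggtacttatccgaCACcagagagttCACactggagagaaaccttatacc
Zfp641: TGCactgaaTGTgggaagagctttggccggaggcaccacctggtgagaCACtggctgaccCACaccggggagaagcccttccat
Zfp560: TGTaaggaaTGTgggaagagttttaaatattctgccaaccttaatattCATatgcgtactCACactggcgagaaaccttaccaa
Zfp167: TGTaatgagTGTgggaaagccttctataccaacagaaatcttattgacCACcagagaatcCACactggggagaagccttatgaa
Zfp37: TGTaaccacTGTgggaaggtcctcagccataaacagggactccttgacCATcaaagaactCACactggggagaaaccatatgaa
The finger shown for each gene was the first with a fixed spacing and the linker TGEKP. The equal spacing of the zinc-binding codons in all 6 genes is therefore set by this choice, while most bases between them were free to differ. Of the 311 rows, 308 had a coding sequence, with a median of 10 fingers per protein and a range from 0 to 36, the most in Zfp142. A match to the KRAB box pattern was found in 118 rows and not found in 190. Since neighbouring Zfp genes are near copies of each other, reads could be split between paralogs by the counting, and values within clusters are uncertain to that extent.

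Clone-dependent use of a single allele was found in 52 of the 299 Zfp rows that could be judged, which are 51 genes because both rows of Zfp628 are among them. A library needed 20 counts of a row for it to be testable there, and the row was monoallelic where at least 85% of counts came from 1 allele and the exact binomial p for a departure from equality was at most 0.05 after Benjamini-Hochberg (BH) adjustment in that library, and biallelic at 70% or less for the major allele. It was called clone-dependent (random) where at least 6 of the 8 clones were testable, at least 1 was monoallelic, and another was biallelic or monoallelic for the other allele. The 52 rows are 17.4% of 299, against 13.7% of 12108 autosomal genes under the same rule. With at least 100 counts asked of each library, 42 of 276 rows met it (15.2%, against 8.35%), and with at least 500 counts 30 of 236 (12.7%, against 5.43%). No Zfp row used the same allele alone in every testable clone, so 0 of 299 were fixed to a strain (95% exact upper limit 1.23%), whereas 1.01% of autosomal genes were.

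The share of clone-dependent genes varied with depth. Among autosomal genes, it went from 35.8% in the bin with the fewest counts to 4.17% in the bin with the most, over 5 bins of equal size. Among Zfp rows in the same bins, the shares were 29.2%, 14.5%, 23.2%, 7.46% and 12.1%, of 48, 69, 82, 67 and 33 rows. The gap was widest in the middle bin, at mean counts of 1560 to 3730 per clone. There 19 of 82 Zfp rows were clone-dependent, against 8.51% of autosomal genes. In the bins on either side of it, the Zfp and autosomal shares were close.

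**Figure D1:**
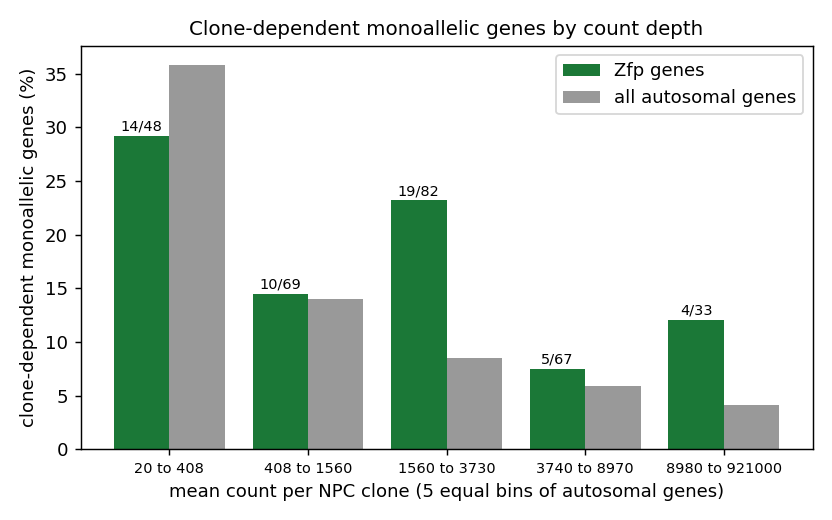
Share of testable genes with clone-dependent monoallelic expression (y axis, percent) in 5 equal bins of autosomal genes by mean count per NPC clone (x axis), for Zfp genes (green, with the number of rows called and tested) and all autosomal genes (grey). The Zfp share is the lower one in the lowest bin (29.2% against 35.8%) and the higher one in the middle bin (23.2% against 8.51%).

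A test of allele shares that allows for overdispersion at each depth was run on the same rows. Shares differed among the 8 clones at a BH adjusted p of 0.05 in 67 of 299 Zfp rows (22.4%), against 19.4% of autosomal genes. Of the 52 clone-dependent rows, 43 were among the 67 and 9 were not. Both calls use the same allele counts of the same clones, so this overlap is no separate evidence. Of the 52 rows, 31 were monoallelic in 1 clone, 7 in 2 clones, 11 in 3, 2 in 4 and 1 in 5. In 12 rows, some clones used only the 129 allele and others only the Cast allele. These splits of the 52 rows are not given here for clone-dependent autosomal genes. Over all clones, 59 monoallelic calls of Zfp rows were for 129 and 59 for Cast.

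Monoallelic Zfp rows were rare in the ES lines. They made up 1.02% of 294 testable rows in the XX ES line (95% exact interval 0.211 to 2.95%) and 1.67% of 300 in the XY ES line (0.543 to 3.85%). In the NPC clones, the share was 8.22% for clone 129, 5.35% for C2, 6.04% for G4, 5.67% for E1.2, 3.65% for mC3, 3.65% for mE6, 2.31% for mB4 and 4.61% for mG3. The mean was 4.94% ± 1.81 (SD, n = 8), every NPC clone lay above both ES lines, and the XX clones (6.32% ± 1.3, n = 4) lay above the XY clones (3.56% ± 0.944, n = 4) without overlap. Over all autosomal genes, the corresponding means were 5.49% ± 0.524 in ES lines (n = 2), 7.2% ± 0.796 in XX clones and 6.4% ± 0.457 in XY clones. These autosomal shares overlapped between the groups. Clone mB4 (5.83%) lay below the XX ES line (5.87%), and mE6 (6.95%) lay above C2 (6.72%) and E1.2 (6.69%). In every library, the Zfp share was below the autosomal share. Both ES lines could be judged for 50 clone-dependent Zfp rows, of which 36 used both alleles in each line and 1, Zfp560, was monoallelic in an ES line. 45 of the 52 rows were monoallelic in an XX clone, 18 in an XY clone and 11 in both. The counts over 50 and 52 rows are not given here for clone-dependent autosomal genes. Monoallelic calls numbered 75 in XX and 43 in XY clones for Zfp rows, and 3627 and 3165 for all autosomal genes.

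The 8 clone-dependent genes with the widest range of allele share, among those with at least 100 counts in at least 6 clones, were Zfp612, Zfp286, Zfp422, Zfp932, Zfp641, Zfp37, Zfp248 and Zfp59. Exact 95% intervals of the shares of single libraries printed for these genes and for Zfp167, Zfp560, Zfp607 and Zfp618 spanned at most 5.9 percentage points at 1000 or more counts, 17.1 points from 100 counts up to that and 30.9 points below 100 counts. These intervals cover counting error only and take each count as independent. They are too narrow where a read over several variants was counted more than once.

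Zfp37 (chr4:61850572-61870338, minus strand, mm9) switched alleles between sister clones. Clone 129 had a 129 share of 46.1%, C2 of 99.9%, G4 of 3.22% and E1.2 of 99.6%, against 48.5%, 42.1%, 46.0% and 62.0% in mC3, mE6, mB4 and mG3. The ES lines were at 58.0% (XX) and 63.4% (XY). All monoallelic clones of Zfp37 were XX, and the 4 XY clones and both ES lines used both alleles. The output of the allele in use was close to that of the same allele in biallelic clones. The 129 allele gave 13.4 and 12.7 CPM in C2 and E1.2, against 10.0 to 19.4 CPM in the 5 biallelic clones, and the Cast allele 20.4 CPM in G4, against 6.15 to 21.6 CPM.

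Zfp248 (chr6:118377336-118405629, minus strand) had the same kind of pattern. Clone 129 had a 129 share of 98.9%, C2 of 2.93%, G4 of 7.68% and E1.2 of 56.2%, with 49.9% to 55.8% in the XY clones and 32.9% (XX) and 43.1% (XY) in ES cells. In clone 129 the 129 allele gave 21 CPM, within its range in the biallelic clones (16.6 to 22.0 CPM), and in C2 and G4 the Cast allele gave 15.0 and 14.2 CPM (12.9 to 20.9 CPM). The gene beside it, Zfp9, was also on the 129 allele in clone 129, at 98.6% of 712 counts, and between 38.7% and 51.2% in the other 7 clones.

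Zfp612 (chr8:112603630-112616699, plus strand) had a 129 share of 100.0% for clone 129 (400 counts), 0.147% for C2, 37.6% for G4, 61.8% for E1.2, 2.35% in mC3, 40.8% in mE6, 27.4% in mB4 and 36.3% in mG3, with 43.4% and 35.5% in the ES lines. Here 1 XY clone and 2 XX clones were monoallelic, and the total ranged from 1.89 CPM in G4 to 33.2 CPM in E1.2. Zfp932 (chr5:110425510-110440666, plus strand) was on the Cast allele in clone 129 (1.18% 129) and mC3 (3.08%), on the 129 allele in G4 (99.2%), and between 37.9% and 55% in the other 5 clones, from 201 to 490 counts each. Its ES lines stood apart from each other, at 66.7% of 69 counts (XX) and 23.3% of 116 counts (XY). Zfp59 (chr7:28623602-28641793, plus strand) was on the 129 allele in clone 129 (100.0% of 111 counts) and on the Cast allele in G4 (5.0% 129, but from 20 counts only, exact interval 0.127 to 24.9%), and between 41.1% and 57.3% in the other 6 clones.

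**Figure D2:**
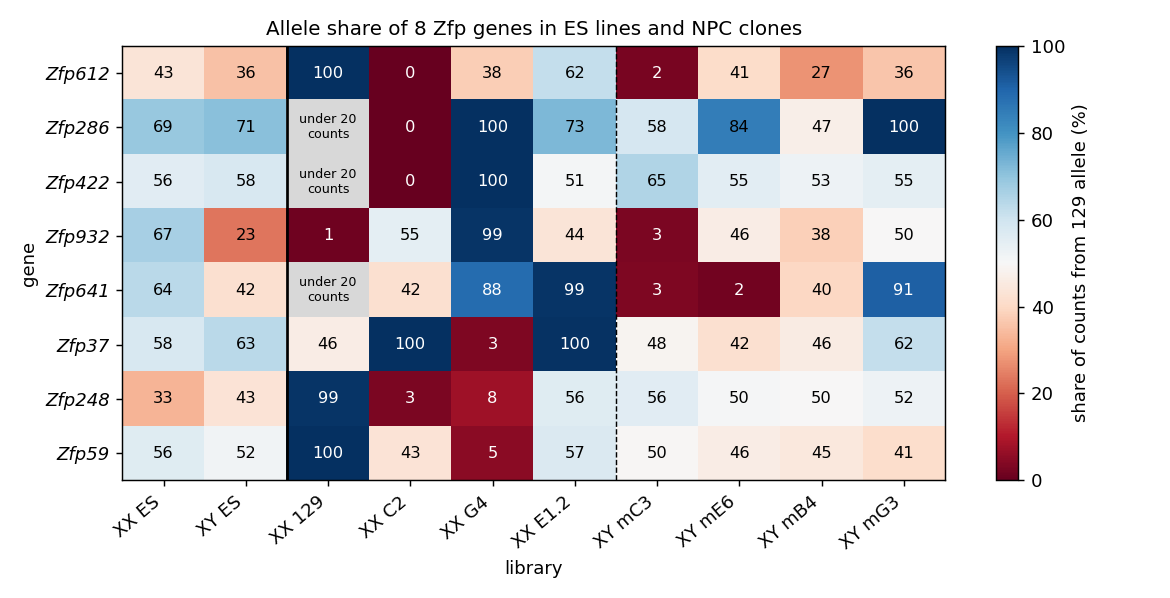
Share of counts from the 129 allele (colour and printed number, percent) for the 8 genes with the widest range among clone-dependent Zfp genes (rows) in the 2 ES lines, 4 XX and 4 XY NPC clones (columns); grey cells have under 20 counts. Shares near 100 or 0 stand in different clones for each gene, and in both ES lines each gene lies between 23.3% and 70.9%.

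Zfp422, Zfp286 and Zfp641 were monoallelic in some clones and without counts in another. Zfp422 (chr6:116574033-116579178, minus strand) had 0 counts in clone 129, 13 CPM in C2 (0.0773% 129), 58.5 CPM in G4 (99.9%), 6.84 CPM in E1.2 (51.1%), 1.43 CPM in mC3 (65.1%), and 117, 110 and 122 CPM in mE6, mB4 and mG3 (52.6 to 55.1%). The ES lines gave 23.2 and 26.8 CPM from both alleles. In G4 the 129 allele made 58.5 CPM, against 57.6 to 66.7 CPM from the same allele in mE6, mB4 and mG3, while E1.2 and mC3 were low on both alleles. Zfp286 (chr11:62591888-62602964, minus strand) had 0 counts in clone 129 and was on the Cast allele in C2 (4.77 CPM, 0.21% 129) and on the 129 allele in G4 (0.762 CPM, 100.0%) and mG3 (21.3 CPM, 100.0%). E1.2 held 2.74 CPM (72.6%), mC3 55.2 CPM (58.5%), mE6 33.3 CPM (84.4%) and mB4 36.1 CPM (47.2%), against 18 and 9.98 CPM in the ES lines. All 4 XX clones of Zfp286 lay below all 4 XY clones in CPM, in a gene picked for its wide range of shares. The edgeR quasi-likelihood test between these groups did not call it (log2 -4.14 ± 1.19, adjusted p 0.105). Zfp641 (chr15:98116027-98126669, minus strand) had 0 counts in clone 129 and 33 counts in mG3 (0.378 CPM), used the 129 allele in E1.2 (99%, 20.9 CPM) and G4 (88.3%, 10.3 CPM) and the Cast allele in mC3 (3.26% 129, 20.8 CPM) and mE6 (1.63%, 28.9 CPM), and both alleles in C2 (41.9%, 26.7 CPM) and mB4 (39.6%, 48.5 CPM). The ES lines were at 2.02 and 0.606 CPM.

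Clone-specific silencing was rare but deep. A gene was called silenced in a clone where its CPM was at most 1/16 of the median of the other 7 clones and at least 100 counts were expected from that median, which is a rule and not a test, since each clone has 1 library. It marked 9 of 287 Zfp rows (3.14%), against 3.33% of 11337 autosomal genes, in 13 pairs of a gene and a clone. Clone 129 held 8 of the 13 pairs, G4 held 2, and C2, mC3 and mG3 held 1 each. The high count of clone 129 was not particular to Zfp genes, since 270 of 10811 autosomal genes were silenced there (2.5%, against 2.92% of 274 Zfp rows) and between 20 and 57 in each other clone. All 9 silenced genes were also among the 52 clone-dependent rows. This overlap is not given here for all autosomal genes, so it cannot be read as a trait of Zfp genes.

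Of the 9, Zfp167, Zfp286, Zfp422, Zfp560 and Zfp641 had 0 counts in clone 129, where 528, 1440, 3950, 1570 and 1410 counts were expected. Against a floor of 3 counts in that library, the median of the other clones was at least 176-fold higher for Zfp167, 481-fold for Zfp286, 1320-fold for Zfp422, 523-fold for Zfp560 and 470-fold for Zfp641. These bounds are on allelic counts. By FPKM, Zfp422 was not at 0 in clone 129 but at 0.121, against a median of 12.8 in the other clones, which is 105-fold lower, while the other 4 genes were listed at 0. Zfp560 (chr9:20149579-20189602, minus strand) also had 0 counts in C2, where 2320 were expected. In the other clones it was at 40 CPM in G4 (59.8% 129), 12.7 in E1.2 (14.7%), 23.2 in mC3 (99%), 34.6 in mE6 (54.8%), 17.2 in mB4 (100.0%) and 27.6 in mG3 (59.1%). The XX and XY ES lines were at 3.81 CPM (89.5%) and 6.39 CPM (67.8%), so this gene showed every state from silence through either allele to both. Zfp167 (chr9:122795935-122805862, plus strand) was on the Cast allele in C2 (5.14 CPM, 0.195% 129), mC3 (7.82 CPM, 0.142%) and mG3 (5.54 CPM, 0.207%), and at 21.4 CPM in G4 (47.9%), 4.45 in E1.2 (16.1%), 9.45 in mE6 (26.8%) and 12 in mB4 (65.5%). Both ES lines leaned to Cast (26.4% and 35.5% 129, at 26.8 and 18.1 CPM).

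The other silenced genes kept some counts. By CPM, Zfp607 was at 1.1%, Zfp618 at 1.54% and Zfp280d at 2.81% of the median of the other clones in clone 129, and Zfp770 at 3.38% in G4. Zfp770 used the 129 allele in E1.2 (93.5%) and the Cast allele in mG3 (0.208% 129). By FPKM, Zfp607 was at 19% of the median (0.238 against 1.25) and missed the limit, so 8 genes were silenced on that scale. Further pairs by CPM were Zfp641 in mG3 (1.81%), Zfp422 in mC3 (2.45%) and Zfp286 in G4 (3.57%). Just outside the rule stood Zfp59 (6.29%), Zfp558 (8.75%) and Zfp612 (9.24%), all 3 in G4.

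**Figure D3:**
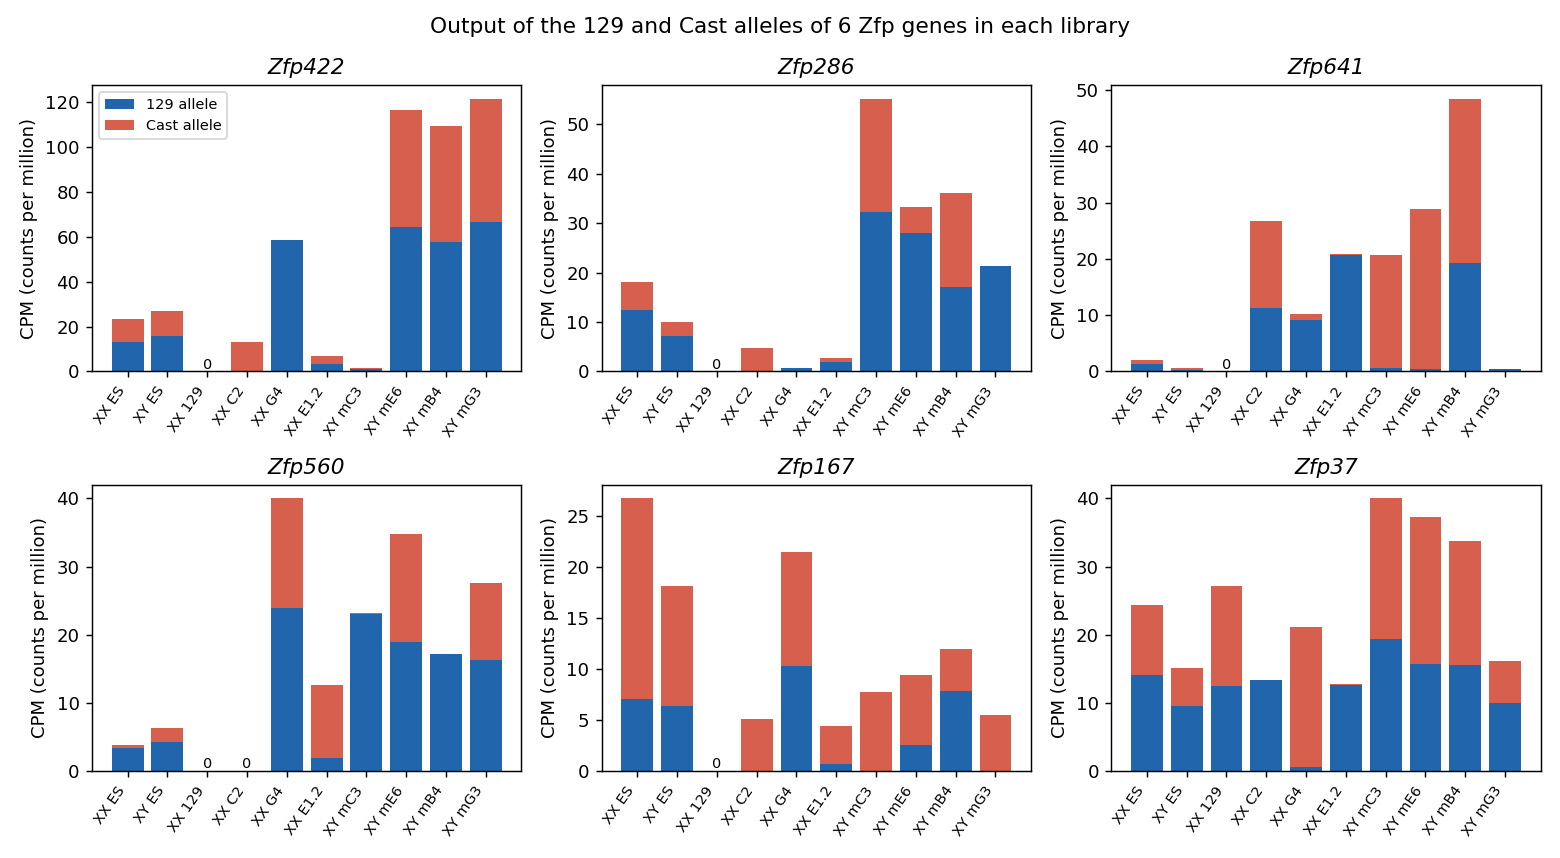
CPM of the 129 allele (blue) and the Cast allele (red), stacked, for 6 Zfp genes in the 2 ES lines and 8 NPC clones, 1 library each; a printed 0 marks a library with no counts. Zfp422, Zfp286, Zfp641, Zfp560 and Zfp167 have no counts in clone 129, whereas Zfp37 is expressed in every clone and keeps about the same output per allele where 1 allele is off.

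Across the 52 rows, clones with 1 active allele had less RNA of the gene. Mean CPM was lower in monoallelic than in biallelic clones in 52 of 52 rows, with a median log2 difference of -0.92, against 76.9% of 1639 autosomal genes and a median of -0.65. By FPKM (the authors' deposited measure per transcript length and depth), 50 of 52 rows were lower, with a median of -0.61 on the log2(FPKM + 1) scale, against 75.8% and -0.25. At 500 or more counts, 30 of 30 rows were lower by CPM (median -0.95), against 87.8% of autosomal genes (-0.79). The allele that stayed on made as much as it did beside an active partner. In 77 gene and clone pairs of 48 rows with at least 3 biallelic clones, the median ratio of its CPM to its median in the biallelic clones was 1.0 (quartiles 0.793 and 1.26), against 1.03 (0.706 and 1.57) over 1879 autosomal pairs. It lay within the range of the biallelic clones in 46 of the 77 pairs, below it in 14 and above it in 17. These CPM comparisons use the counts that also define the calls, and are a description.

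The genes beside clone-dependent Zfp genes were mostly biallelic in the same clone. For the 8 genes with the widest range, 85 testable flanking rows (up to 2 on each side) in 24 monoallelic pairs of a gene and a clone were examined, of which 62 were biallelic and 10 used the same allele (11.8%). Counted in the same way, 5.92% of 321 flanking rows of the 52 clone-dependent Zfp rows used the same allele, against 7.2% of 10921 flanking rows over all 1653 clone-dependent autosomal genes. Among 148 adjacent pairs of testable Zfp rows, 45 had a clone-dependent member and 9 had 2, which is 20%, against 9.93% of such pairs over all autosomal genes. Of the 9, 1 pair, Zfp248 and Zfp9, was monoallelic in the same clone, against 115 of 194 such pairs over all autosomal genes (59.3%). The 3 genes Zfp445, Zfp167 and Zfp105, side by side on chromosome 9 (chr9:122757870-122840146), were all clone-dependent, but in different clones. Zfp445, which keeps imprints together with Zfp57, was on the 129 allele in E1.2 (88.6%, 258 CPM) and biallelic elsewhere (49.7 to 57.4%, 361 to 504 CPM), Zfp105 was on 129 in clone 129 (97.9%), and Zfp167 was without counts there.

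Clone-dependent calls were more frequent in genes with a KRAB box match and in genes with many fingers. They covered 29 of 112 testable rows with a KRAB match (25.9%) and 23 of 185 without (12.4%), and at 500 or more counts 16 of 81 (19.8%) and 14 of 154 (9.09%). By number of fingers, the share was 4.0% at 0 to 4, 16% at 5 to 9, 21% at 10 to 14 and 24.6% at 15 or more. The median of the mean NPC count was lower in rows with a KRAB match (1650, against 2170), and the part of depth was not tested beyond the 500-count values. No test was made between these classes, and rows without a match may still hold a KRAB box of a variant form.

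The promoters of 3 of these genes are shown because Zfp422 and Zfp560 were without counts in a clone and Zfp932 changed allele at a start with few CpG. Each is the RefSeq promoter in build GRCm38.p6, 250 bases before to 50 after the start of the gene, 5′ to 3′ on the strand of the gene, with each CG in capitals.
Zfp422, chr6:116628652-116628951, minus strand: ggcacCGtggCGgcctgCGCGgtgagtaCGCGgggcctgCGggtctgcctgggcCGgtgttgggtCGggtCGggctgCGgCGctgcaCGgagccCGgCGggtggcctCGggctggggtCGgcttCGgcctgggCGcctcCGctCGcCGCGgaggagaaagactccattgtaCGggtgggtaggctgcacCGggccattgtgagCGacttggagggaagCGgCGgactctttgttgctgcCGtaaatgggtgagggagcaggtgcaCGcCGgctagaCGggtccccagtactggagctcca
Zfp560, chr9:20385109-20385408, minus strand: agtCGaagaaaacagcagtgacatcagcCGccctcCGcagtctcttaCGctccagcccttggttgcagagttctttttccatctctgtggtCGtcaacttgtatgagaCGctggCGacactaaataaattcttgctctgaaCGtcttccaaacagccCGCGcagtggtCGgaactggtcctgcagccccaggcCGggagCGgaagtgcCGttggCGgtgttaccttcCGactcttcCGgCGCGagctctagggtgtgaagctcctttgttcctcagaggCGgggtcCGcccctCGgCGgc
Zfp932, chr5:109996260-109996559, plus strand: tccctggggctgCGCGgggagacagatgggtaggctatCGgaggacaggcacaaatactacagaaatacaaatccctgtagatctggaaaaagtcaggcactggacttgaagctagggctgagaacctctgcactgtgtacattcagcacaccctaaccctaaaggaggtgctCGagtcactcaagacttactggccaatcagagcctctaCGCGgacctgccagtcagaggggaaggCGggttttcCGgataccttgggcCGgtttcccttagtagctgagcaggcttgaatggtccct
Zfp422 holds 32 CG, Zfp560 23 and Zfp932 9 in 300 bases. RefSeq promoters matched 255 of the 311 Zfp rows, with a median of 15 CG, and 64.3% held at least 12. The direction of this difference depends on the background: 40.1% of the 27025 promoters in the RefSeq table held at least 12, whereas 76.1% of the 10276 promoters matched to the 14415 autosomal rows of the expression table did, with a median of 21. These matches cover under 80% of the autosomal rows, so the comparison with them is void. Among clone-dependent rows 53.3% of 45 matched promoters held at least 12 CG, against 67.3% of 202 in testable rows that were not clone-dependent, and the median was 15 in both. CG was counted on 1 strand, where it reads the same on the other.

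Zfp genes were concentrated in clusters. Rows whose starts lay at most 500 kb apart were chained, and chains of at least 3 Zfp rows gave 28 clusters with 179 of the 311 rows (57.6%). Chromosome 7 held 76 rows and 9 clusters, and 6.81% of its 1116 rows were Zfp, against 2.16% of all autosomal rows, while chromosome 17 held 40 and chromosome 13 held 30. The cluster with most members, chr17:21145684-23736454, had 19 Zfp rows, of which 16 had a KRAB match, followed by 18 rows at chr13:67139529-67927937 and 14 each at chr7:30553570-30954852 and chr7:24866961-26012524. Clustered and scattered genes were clone-dependent at much the same rate, 17.3% of 173 and 17.5% of 126 rows. Silencing was seen in 3 of 161 clustered and 6 of 126 scattered rows.

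Between ES lines and NPC clones, Zfp genes were called in both directions, with a narrower middle spread than all genes. By edgeR's quasi-likelihood test with the line as covariate and BH adjustment over all genes, 115 of 310 tested rows were higher in NPC (37.1%, against 33.2% of 14561 genes), 76 were lower (24.5%, against 29.6%) and 119 were neither. The median log2 fold change was 0.30 (quartiles -0.67 and 1.14), against 0.11 (-0.9 and 1.42) for all genes. All table rows reach 11 counts in some NPC clone, while 1635 of them, 6 being Zfp rows, stay below this in both ES lines. Genes seen in ES cells alone are thus not in the table, and Zfp42, a marker of ES cells, is not analysed here, nor are Zfp296, Zfp36, Zfp36l1 and Zfp322a. By FPKM with limma, 113 of 311 rows were higher and 83 lower. Of the rows tested by counts, 175 had the same call by both, and 1 had opposite calls: Zfp451, a SUMO ligase, was 1.68 ± 0.15 (SE) higher by counts (adjusted p 1.9e-05, edgeR) and 0.76 lower on the log2(FPKM + 1) scale (adjusted p 0.000396, limma), so its direction is unsettled.

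**Figure D4:**
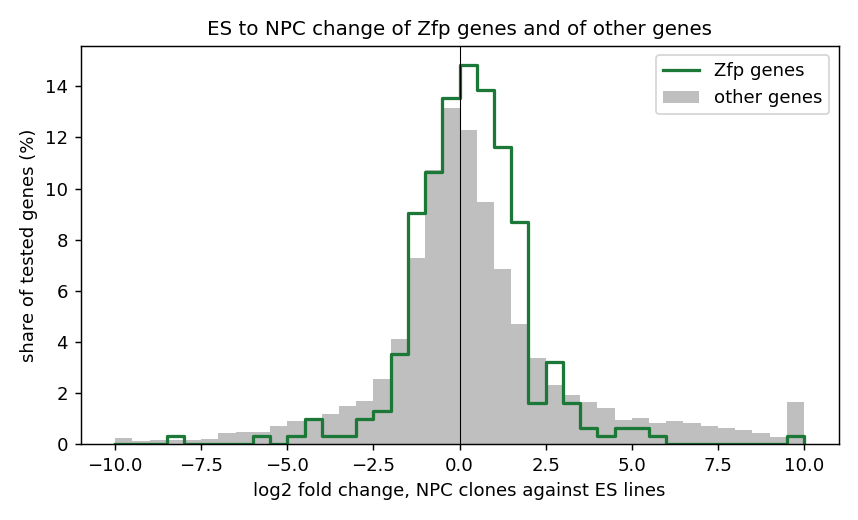
Share of tested genes (y axis, percent) by log2 fold change of NPC clones against ES lines (x axis, steps of 0.5, with values beyond the ends pooled in the last bars), for 310 Zfp rows (green line) and all other tested genes (grey bars). The Zfp rows gather between -2 and 2, with a median of 0.30.

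The 6 largest falls past the test were those of Zfp819, Zfp473, Zfp941, Zfp7, Zfp57 and Zfp750, of which Zfp819, Zfp941 and Zfp7 had a KRAB match. Zfp819 was at 28.2 and 33.0 CPM in the XX and XY ES lines and between 0.0265 and 0.301 CPM in the NPC clones (median 0.0679), a log2 fold change of -8.06 ± 0.72 (adjusted p 1.95e-05). Zfp473, whose human counterpart acts in histone mRNA processing, was at 71.0 and 67.4 CPM in ES and 0.767 to 2.31 CPM in NPC (median 1.24), a change of -5.73 ± 0.32. In both genes the groups lay far apart and no clone approached the ES level. Zfp57, which protects methylation at imprinted loci, was at 27.5 and 17.3 CPM in ES and 0.186 to 4.63 CPM in NPC (median 1.2), a change of -4.08 ± 0.70 (adjusted p 0.000857), with its highest NPC value in clone 129. Zfp7 fell by 4.21 (SE 0.27) and Zfp750, known from epidermal differentiation, by 4.06 (SE 0.61) from an ES mean of only 1.17 CPM. Zfp941 fell by 4.70 (SE 1.44, adjusted p 0.0181), a call that was lost without either ES line (adjusted p 0.15 without the XX line and 0.078 without the XY line), and its log2 change went from -4.11 without the XX ES line to -6.77 without clone E1.2.

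Zfp568, a KRAB repressor of a placental Igf2 transcript, was the most counted of the genes chosen for their known roles. It stood at 1210 and 1180 CPM in the ES lines and 67.3 to 147 CPM in NPC (median 119), and fell by 3.36 (SE 0.18, adjusted p 1.59e-06). Zfp809, which silences retroviruses in ES cells, fell from 183 and 225 CPM to 79.5 to 104 CPM (log2 -1.16 ± 0.11). Zfp217, a partner of corepressor complexes, fell by 1.42 (SE 0.13), and Zfp281, a GC-box factor of ES cells, by 0.96 (SE 0.11). The row joining Zfp36l2, an RNA-binding protein of the CCCH type, to Thada fell by 1.39 by counts but not by FPKM (-0.36, adjusted p 0.168, limma). Zfp462 did not pass (-0.04 ± 0.19, adjusted p 0.857), nor did Zfp423, a factor of neural and fat cell development (0.62 ± 0.25, adjusted p 0.0553).

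The 6 largest rises past the test were those of Zfp804a, Zfp503, Zfp385b, Zfp521, Zfp467 and Zfp703. Of these, Zfp804a and Zfp467 stayed below 11 counts in both ES lines, so they are in the table only through NPC clones. For both, the test was thus run on rows selected by the group in which they are high. Zfp503 and its relative Zfp703 belong to the NET family and had no match to the C2H2 pattern. Zfp503 was at 0.192 and 0.381 CPM in ES and 7.87 to 35.1 CPM in NPC (median 12.3), a change of 5.41 ± 0.71 (adjusted p 0.000177), or 4.45 without the XX ES line and 6.94 without the XY ES line. Zfp703 was at 0.945 and 1.88 CPM in ES and 16.3 to 34.9 CPM in NPC (median 24.7), a change of 4.19 ± 0.38. In both, every clone lay above both ES lines. Zfp521, which promotes neural fate, rose from 1.77 and 2.54 CPM to 46.4 to 94.5 CPM (4.70 ± 0.37), and Zfp238, a repressor in the developing cortex, from 1.06 and 1.78 CPM to 9.01 to 16.8 CPM (3.18 ± 0.33). Zfp467 rose from 0 and 0.0705 CPM to 0.386 to 1.38 CPM (4.66 ± 1.08), but its size was not settled, with 3.58 without the XX ES line and 9.21 without the XY ES line, which leaves only the ES line with 0 counts. Zfp804a had 0 counts in both ES lines and 0.0914 to 2.4 CPM in NPC, a mean at least 50.6-fold above a floor of 3 counts over the 2 ES libraries. Its call (adjusted p 0.00803) was lost without the XY ES line (adjusted p 0.0534) and by FPKM. Zfp385b, at 0 and 0.212 CPM in ES and 1.48 to 28.6 CPM in NPC (5.25 ± 1.78, adjusted p 0.028), lost its call without the XX ES line, without mC3 and by FPKM. Its fitted size went from 3.74 without the XX ES line to 13.04 without the XY ES line, where again the ES line left had 0 counts.

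Genes with and without a KRAB match were called in like proportions. Of 118 rows with a KRAB match, 44 were higher and 25 lower (median log2 0.32), and of 189 without, 70 and 50 (median 0.23). Rows with 0 to 4 fingers were the class with more calls lower than higher, 23 and 14 of 51 (median -0.26). The partners of KRAB proteins were mostly lower in NPC. Of 19 listed corepressor genes, 16 were in the table, 9 were lower, 3 higher and 4 neither, with a median of -1.0. By edgeR, Trim28, the protein that KRAB boxes bind, fell by 2.22 (SE 0.18, adjusted p 1.1e-05) and the methylation cofactor Uhrf1 by 2.02 (SE 0.25). The heterochromatin protein genes were split. Cbx1 fell by 1.6 (SE 0.20), from a mean of 54.4 to 17.9 CPM. Cbx5 rose by 0.46 (SE 0.15, adjusted p 0.0215), from 399 to 549 CPM, and Cbx3 did not pass (-0.22 ± 0.41). Hdac2 (0.57) and Pphln1 (1.13) were the other 2 called higher. The methyltransferase gene Setdb1 did not pass (-0.28 ± 0.12, adjusted p 0.0794). Among other zinc finger name families, 12 of 34 Zbtb genes were higher and 12 lower, and 3 of 14 Klf genes were higher and 8 lower.

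Neighbouring Zfp rows moved in either direction. Adjacent Zfp pairs were taken in clusters and outside them. Of 51 adjacent Zfp pairs with both members called, 27 had the same direction (52.9%), against 59.4% of 4454 adjacent pairs of all autosomal genes. The cluster of 19 on chromosome 17 had 8 rows higher and 4 lower (median 0.63), that of 18 on chromosome 13 had 2 higher and 3 lower (median -0.22), and the 14 rows at chr7:30553570-30954852, where Zfp568 lies, split into 6 higher and 6 lower. A small cluster at chr7:4866816-5005325 had 6 of 7 rows higher and none lower (median 1.59), with both rows of Zfp628 among them, and was picked out after its values were seen. Clustered rows were higher in 68 of 179 cases and lower in 37 (20.7%), and scattered rows in 47 and 39 of 131 (29.8%).

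**Figure D5:**
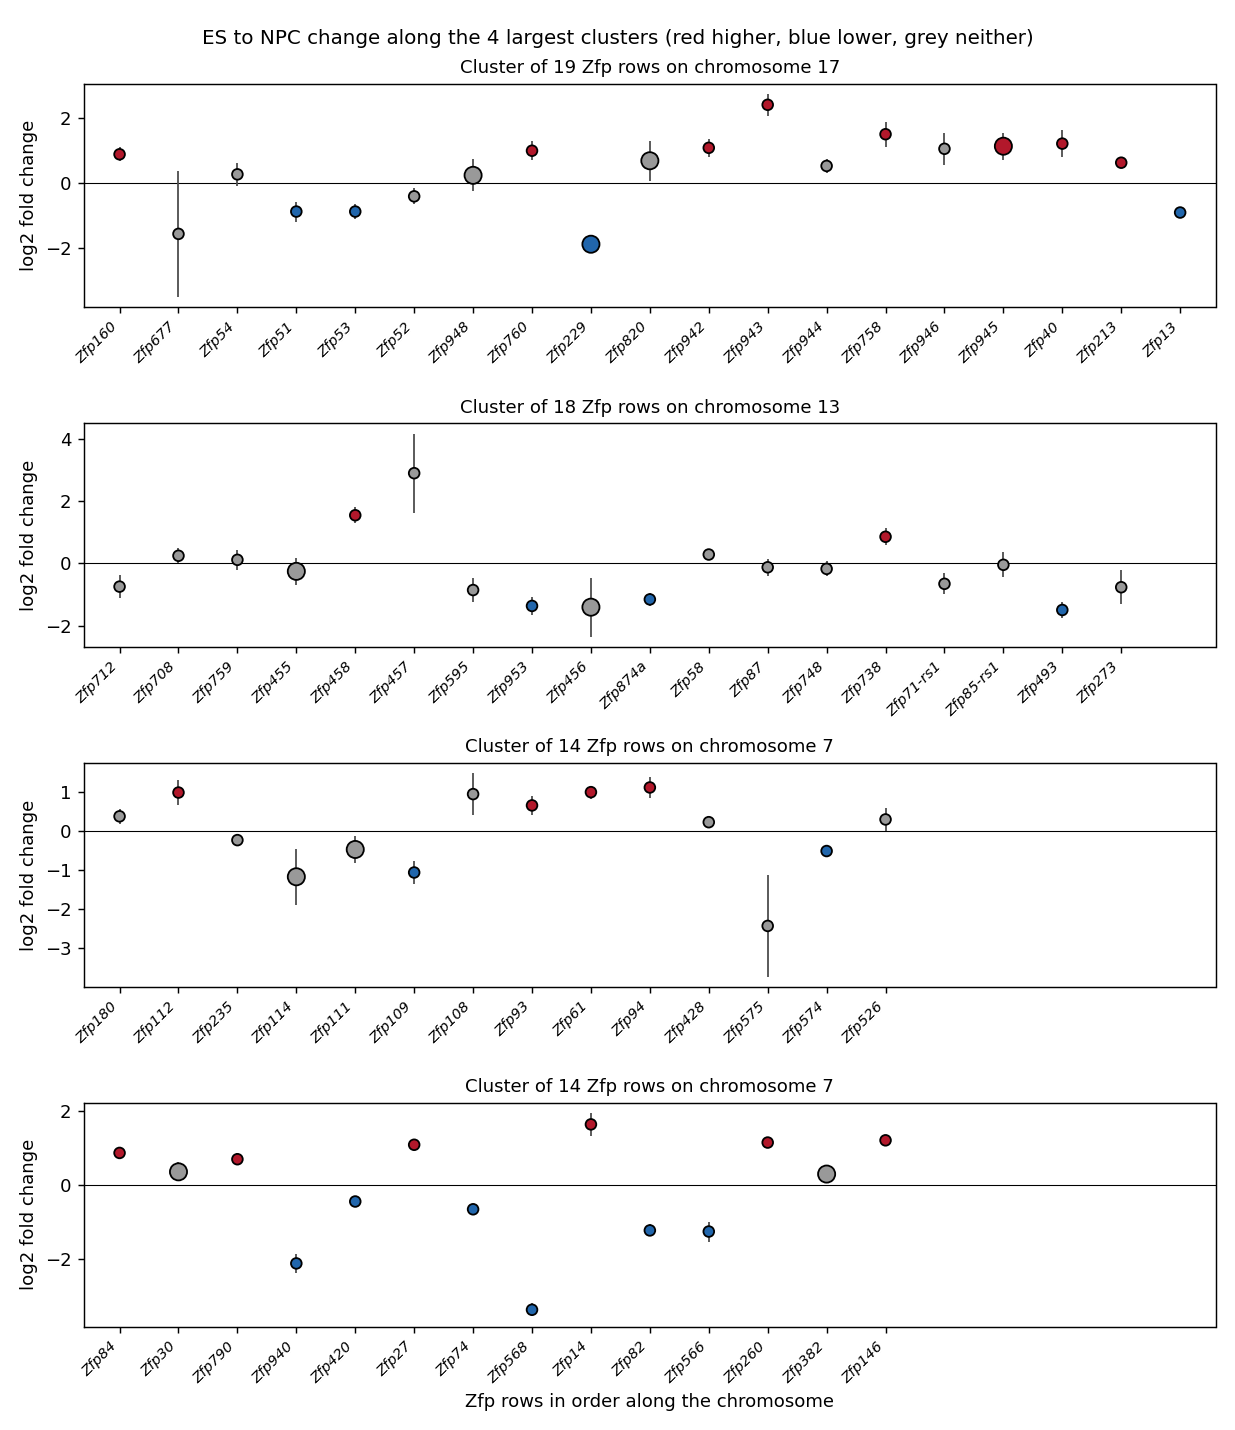
Log2 fold change of NPC clones against ES lines with its standard error (y axis) for the Zfp rows of the 4 largest clusters, in order along the chromosome (x axis, even spacing); red points are higher, blue lower and grey neither, and large points are clone-dependent monoallelic genes. Each cluster holds both higher and lower rows, as do the 14 rows around Zfp568 with 6 higher and 6 lower.

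Between XX and XY NPC clones, the edgeR quasi-likelihood test called 1 of 303 rows (0.33%), against 1.24% of 13591 genes, and 43 rows had an unadjusted p under 0.05, against 23.7% of all genes (3220). The gene was Zfp365, which encodes a protein of neural cells, at 54.0 CPM for clone 129, 65.6 for C2, 86.5 for G4 and 62.9 for E1.2, and at 122, 154, 134 and 146 CPM in mC3, mE6, mB4 and mG3. The groups did not overlap (log2 -1.06 ± 0.15, adjusted p 0.0351, edgeR), and the call ended without C2, E1.2 or any of the XY clones (adjusted p 0.0622 to 0.134). Next came Zfp503 (1.47 ± 0.29, adjusted p 0.0516), Zfp827, known from telomere chromatin (0.37 ± 0.08, 0.0599), and Zfp839 (0.58 ± 0.13, 0.062), all higher in XX clones. DESeq2 called 18 rows in the same comparison, against 14.4% of 13514 genes. The ES to NPC change itself differed between the lines in 1 of 311 rows (0.322%), against 0.141% of 14848 genes: Zfp608 was at 0.236 CPM in the XX ES line, 8.6 CPM in the XY ES line and 19.7 to 28.2 CPM in all 8 clones (interaction log2 5.18, adjusted p 0.00318, edgeR), with 1 library behind each ES value.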

How the data were processed

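Polyadenylated RNA of 2 ES lines (n = 2) and 8 NPC clones (n = 8, 4 XX and 4 XY) had been sequenced as paired reads of 100 bases. The repeats of C2 and mC3 were not used here. The deposited table gives whole-number counts per gene, taken as observations informative for the allele, and the share of these counts from the 129 allele as a deposited fraction (printed in percent, "nd" at 0 counts). It also gives FPKM, scaled to transcript length and library size by the authors. Per the submitters' processing notes, the tools were SAMtools, TopHat 1.4.0 and Cufflinks 1.3.0 on build mm9. The origin of each column, the set of variants and the counting of reads that span more than 1 variant are not given in the sources used here. Gene coordinates are those of the table (mm9). Every row reached 11 counts in at least 1 NPC clone.

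Counts were tested with edgeR 4.0.16 (quasi-likelihood, TMM, filterByExpr, R 4.3.3) over all genes with BH adjustment at 0.05, the line being a covariate for NPC against ES. FPKM were tested as log2(FPKM + 1) with limma 3.58.1, where a change of a low gene is understated. Errors of log2 fold changes by edgeR are approximate standard errors. Each is the absolute log2 change divided by the square root of its F statistic. CPM used TMM library sizes, and levels were compared within a gene only. P-values measure the spread between clones with 1 library each, and nothing states that the clones came from separate cultures. Heterogeneity of allele shares was tested by a chi-square over the 8 clones divided by an overdispersion interpolated over depth. Recovery was measured on simulated counts, where the 200 changed genes of each expression comparison had a median absolute log2 change of 2.0. The NPC against ES test recovered 67.5% of them (4.3% of calls false, 14389 genes), and XX against XY 78.5% (1.3%, 13405 genes). The heterogeneity test recovered 99.5% of 200 changed genes (7.9%, 12108 genes), and its false share was above the BH limit of 0.05. There each changed gene had over 100 counts in every clone and 1 clone moved almost wholly to 1 allele. The simulated overdispersion was the same at all depths. Recovery by depth, or at smaller sizes of change, was not tested.

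C2H2 fingers (C, 2 to 4 residues, C, 12 residues, H, 3 to 5 residues, H) and KRAB boxes were matched in translations of the longest GENCODE vM1 coding sequence, in place of RefSeq proteins. A gene without a match may still hold a variant form. RefSeq promoters cover under 80% of the silenced, the scattered and all autosomal rows, so CG counts are given only for the autosomal rows, as a void comparison.

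Named genes were 10 members with known roles, the 8 clone-dependent genes with the widest share range, the 6 largest rises and falls, the silenced genes with the lowest ratios, the largest clusters and the 4 lowest p-values of XX against XY. The members, rules and lists were chosen with earlier results of these data known. Alternatives were DESeq2 1.42.0, other scaling and filters, FPKM, other count and share minimums, other gap lengths, and leaving out each library.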

Additional observations from a re-analysis of the deposited data

Results flagged for a closer look

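Among the genes named above, the 8 NPC clones were compared for a clone far from the others, in 67 sets of CPM values or allele shares. 3 sets had one, and chance marks about 1 set in 20. Zfp521 was at 94.5 CPM in clone E1.2, against 46.4 to 64.4 CPM in the other 7 clones. Zfp568 was at 67.3 CPM in the same clone, against 113 to 147 CPM. Clone E1.2 was also the clone with the highest summed neuron and astrocyte markers (279 and 226 CPM), and their part in these values was not tested. Zfp385b was at 28.6 CPM in clone G4, against 1.48 to 12.7 CPM elsewhere, and its ES to NPC call kept its side of the threshold without G4 (log2 5.11).

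Zfp608 differed between the lines in its ES to NPC change, with an interaction of 5.18 on the log2 scale (edgeR, adjusted p 0.00318). The XX ES line held 16 counts of it and the XY ES line 610, while the clones of the 2 lines were level (XX 23.6 ± 3.51 CPM, n = 4, and XY 23.5 ± 1.41 CPM, n = 4).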

How the results depend on the processing

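No paired analysis was possible because the clones carry names and no shared numbers. The ES line of origin was a covariate of the NPC against ES fit, and without it 110 rows were higher and 74 lower. The NPC against ES counts stayed within 1.5 times under DESeq2, other scaling, no filter, no line covariate, FPKM and the ES lines with XY clones alone (110 to 122 higher, 74 to 84 lower). Leaving out 1 library gave 87 to 121 higher and 54 to 82 lower, the lowest values without the XX ES line. Between XX and XY clones, DESeq2 called 18 rows and leaving out 1 clone gave 0 to 7, with 7 without clone 129. Clone-dependent rows numbered 30 at 500 counts and 34 at an FPKM of at least 1, and 40 to 50 with 1 clone left out. Shares differed among clones in 285 rows under binomial error alone and in 59 to 64 with 1 clone left out. A silencing limit of 1/8 gave 14 genes, and leaving out 1 clone gave 7 to 11. The mean monoallelic share of Zfp rows in ES lines was 0.548% at 100 counts, 0.333% at a major allele of 95% and 0.538% among rows testable in all 10 libraries. Zfp462, not past the test, ranged from -0.18 to 0.13 with 1 library left out, with a changed sign without the XY ES line (0.13) and mG3 (0.01). The range of Zfp59 shares was 58.9 points at 100 counts, which leaves out its G4 value. Among genes not given such values above, the log2 change moved by over 1.5 times in fold for Zfp57 (-3.42) and Zfp7 (-3.44) without the XY ES line, Zfp750 (-3.39) without the XX ES line and Zfp819 (-8.65) without C2. The cause of the other differences was not tested. Depth limits the allele calls of rows with few counts, and 1 library per clone leaves silencing without a test.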
